A study of Rattus norvegicus with 12 samples.

Results

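The bone morphogenetic protein (BMP) pathway was followed in endothelial cells (ECs) of the rat ductus arteriosus (DA) through 10 genes, the ligands Bmp2, Bmp4, Bmp6 and Gdf6, the type II receptor Bmpr2, the secreted modulator Bmper, the inhibitory Smads Smad6 and Smad7, and the target genes Id1 and Id3. Each gene was taken by its symbol, as the probe set annotated to that symbol alone with the highest mean signal. 9 of the 10 genes had such a probe set, 1 each, among the 26468 probe sets of the array, and all 9 reached the level needed for testing. Bmper had no named probe set, and its expression was not analysed here.

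BMP ligands are secreted dimers that bring type I and type II serine kinase receptors together on the cell surface. The active type I receptor phosphorylates Smads, which enter the nucleus with a shared partner Smad and switch on target genes, the Id genes among them. Inhibitory Smads are induced by the same signal and damp it, while secreted antagonists bind the ligands outside the cell. In endothelium the pathway is known for its role in vessel growth, in quiescence and in endothelial-to-mesenchymal transition.

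The cells were CD31+/CD45- ECs, taken by FACS after enzymatic dispersal of the vessels of Wistar rats. There were 4 groups with 3 Rat Gene 1.0 ST arrays each, namely DA ECs and aortic ECs of fetuses on gestation day 21 (F group), and DA ECs and aortic ECs of neonates 30 minutes after birth (N group). Animals of both stages were delivered by cesarean section. Vessels of many litters went into each array, so p-values measure the spread between pools, and precision is set by the 3 arrays of a group.

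The deposited values were log2 signals, with array medians between 5.63 and 5.76. The lys spike, an RNA control added to each sample, had a mean of 4.44, and 18690 probe sets at or above it were tested with limma, with 1 mean per group. A gene was called at a Benjamini-Hochberg adjusted p under 0.05 over all 18690. Arrays of the same replicate number deviated together, so the same fit with the replicate number as a block is given where it changed the call of a member or of a pathway gene named below. In these bulk sorts, fewer cells of a type and less RNA per cell cannot be told apart. Endothelial markers were well measured, with mean log2 signals of 11 listed markers of 10.05 to 10.23 on DA arrays and 10.27 to 10.53 on aortic arrays. Smooth muscle markers averaged 7.36 to 7.84 on DA arrays and 6.95 to 7.04 on aortic arrays, with 4 of 8 higher in the DA over both stages (6 with the block) and 0 lower. Of all probe sets tested, 3.19% were called higher and 4.93% lower over both stages, and 7.71% and 10.1% with the block. Of 7 fibroblast and matrix markers tested, 1 was higher and 2 were lower (4 higher and 2 lower with the block). Of 2 mesothelial markers tested, 1, Msln, was higher (1 with the block as well). Of 7 leukocyte markers with a named probe set, 4 were below the spike, among them Ptprc, which encodes CD45. The other 3 were tested, and 1, Cd14, was lower in the DA over both stages, with 5.71 to 6.31 in the DA and 6.39 to 6.98 in the aorta in F (2 lower with the block, Cd14 and Cd68). Of 4 erythroid markers tested, 0 were called between the vessels over both stages or between N and F.

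Gdf6 was the member that differed most between the vessels, and the other ligands stood close to each other in DA and aortic ECs. Gdf6, a secreted ligand best known from joint and skeletal patterning, was 4.82-fold higher in the DA in F and 3.89-fold higher in N. Bmp2 was lower on the DA arrays without passing the test, Bmp4 had overlapping groups, and Bmp6 was nearly the same on all 12 arrays. Of the 9 members, 1 was called in F, where 3.77% of all probe sets tested were, and 1 in N, where 3.14% were. The called member was Gdf6 in both. The median log2 fold change of the 9 members was -0.08 in F and -0.11 in N, against 0 over all probe sets at either stage.

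Gdf6 had log2 signals of 9.12, 9.16 and 9.25 on the DA arrays of the F group, against 6.72, 7.08 and 6.92 on the aortic arrays. In the N group it had 8.38, 9.15 and 8.74 in the DA and 6.80, 6.83 and 6.77 in the aorta. Every DA array lay above every aortic array, and the DA arrays of the N group were spread more widely than those of the F group. The log2 fold change was 2.27 in F (standard error 0.17, adjusted p = 1.24e-05, limma), a fold of 4.82, and 1.96 in N (standard error 0.17, adjusted p = 4.34e-05), a fold of 3.89. The 95% intervals were 1.90 to 2.64 and 1.59 to 2.33, and no call was lost without any 1 array. Smooth muscle markers (4 of 8) and the mesothelial marker Msln were higher in the DA as well. Wt1, the other mesothelial marker tested, did not pass the test over both stages. Its mean log2 signals for fetuses were 4.86 (DA) and 4.89 (aorta), and for neonates 4.83 (DA) and 4.71 (aorta). Msln had 6.15 to 6.25 in the DA and 5.51 to 5.56 in the aorta in F, and 5.78 to 6.23 in the DA and 5.40 to 5.74 in the aorta in N. The part of these cell types in the Gdf6 difference was not tested.

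**Figure D1:**
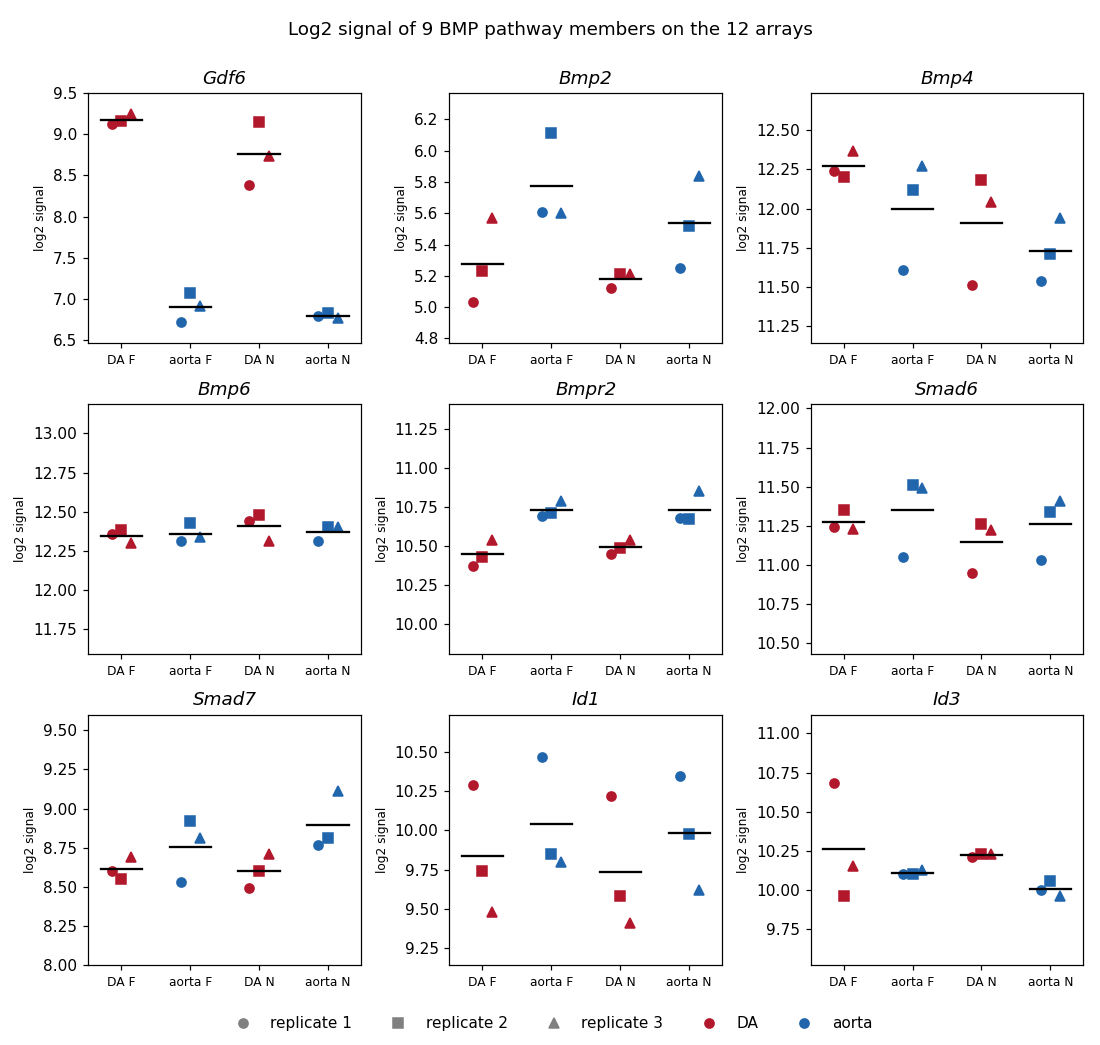
Log2 signals (y axis, as deposited) of the 9 measured members by group. Each point is 1 array, its shape the replicate number, and each black line the mean of 3 arrays. The DA arrays of Gdf6 (8.38 to 9.25) lie above all its aortic arrays (6.72 to 7.08), and the replicate 1 arrays of Id1 are the highest in each group.

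Bmp2, a ligand that drives mesenchymal and osteogenic differentiation, had 5.03, 5.23 and 5.57 in the DA and 5.61, 6.11 and 5.60 in the aorta in F. In N it had 5.12, 5.21 and 5.21 in the DA and 5.25, 5.52 and 5.84 in the aorta. The vessels did not overlap within a stage, although the gap was small. On 2 of the 12 arrays the signal was below the spike of the same array, which ran from 3.41 to 6.17 over the arrays. The log2 fold change was -0.50 in F (standard error 0.19, adjusted p = 0.24, limma) and -0.36 in N (standard error 0.19, adjusted p = 0.584). Over both stages, with 6 DA and 6 aortic arrays, it was -0.43 (standard error 0.13, adjusted p = 0.0782), with a 95% interval of -0.72 to -0.14. Bmp2 was called lower over both stages with the replicate block (adjusted p = 0.0152), without DA F replicate 3 (0.0457) and without aorta N replicate 1 (0.0475). With the block, 17.8% of all probe sets were called over both stages, against 8.12% without it.

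Bmp4, a ligand of mesoderm and vascular development that endothelium releases under disturbed flow, had 12.24, 12.20 and 12.37 in the DA and 11.61, 12.12 and 12.27 in the aorta in F. In N the signals were 11.51, 12.18 and 12.04 in the DA and 11.54, 11.71 and 11.94 in the aorta. The groups overlapped at both stages, and the replicate 1 array was the lowest in 3 of the 4 groups. The log2 fold change between the vessels was 0.27 in F (95% interval -0.17 to 0.71, adjusted p = 0.696, limma) and 0.18 in N (-0.26 to 0.62, adjusted p = 0.969).

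Bmp6, a ligand that endothelium makes and that regulates hepcidin in the liver, had 12.36, 12.38 and 12.30 in the DA and 12.31, 12.43 and 12.34 in the aorta in F. In N it had 12.44, 12.48 and 12.31 in the DA and 12.31, 12.40 and 12.40 in the aorta. All 12 arrays lay within 0.19 on the log2 scale. The intervals of the vessel difference were -0.24 to 0.20 in F and -0.18 to 0.26 in N (limma, adjusted p = 0.978 and 0.999).

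**Figure D2:**
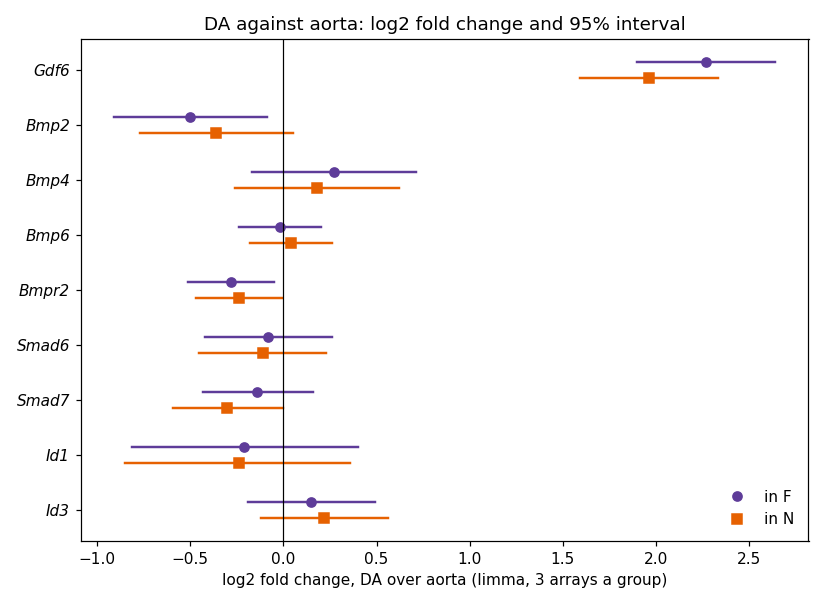
Log2 fold change of DA over aorta (x axis) for the 9 measured members in F (circles) and N (squares), from limma with 3 arrays per group. Lines are 95% intervals. Gdf6 stands at 2.27 in F and 1.96 in N, and the other 8 members lie between -0.50 and 0.27.

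Bmpr2, the type II receptor through which BMP ligands signal and the gene most often mutated in heritable pulmonary arterial hypertension, was slightly lower on every DA array than on any aortic array. It had 10.37, 10.43 and 10.54 in the DA and 10.69, 10.71 and 10.79 in the aorta in F. In N it had 10.45, 10.49 and 10.54 in the DA and 10.68, 10.67 and 10.85 in the aorta. The log2 fold change was -0.28 in F (standard error 0.11, adjusted p = 0.227, limma) and -0.24 in N (standard error 0.11, adjusted p = 0.427). Over both stages it was -0.26 (standard error 0.07, adjusted p = 0.0513), a signal 1.20 times as high in the aorta, with a 95% interval of -0.43 to -0.10. Leaving out 1 array gave adjusted p-values of 0.0584 to 0.12. Over both stages the 11 endothelial markers had a median log2 fold change of -0.19, against 0 over all probe sets. Their part in the Bmpr2 difference was not tested.

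The block brought Bmpr2 past the threshold in F and over both stages. In the blocked fit, the adjusted p was 0.047 in F, where 10.4% of all probe sets were called, 0.113 in N, where 7.27% were, and 0.00801 over both stages. Within replicate numbers, DA minus aorta was between -0.32 and -0.18 in all 6 pairs. The vessels did not overlap in 3 of 9 members in F (Gdf6, Bmp2 and Bmpr2), in 5 in N (these and Smad7 and Id3) and in 2 over both stages (Gdf6 and Bmpr2). The same held for 18.6%, 15.3% and 6.98% of all probe sets.

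Smad6 and Smad7, the inhibitory Smads that block receptor and Smad activation and are themselves induced by BMP and TGF signals, were not called between the vessels. Smad6 had 11.24, 11.35 and 11.23 in the DA and 11.05, 11.51 and 11.49 in the aorta in F. In N it had 10.95, 11.26 and 11.22 in the DA and 11.03, 11.34 and 11.41 in the aorta. The groups overlapped at both stages, with log2 fold changes of -0.08 in F (95% interval -0.42 to 0.26, adjusted p = 0.928, limma) and -0.11 in N (-0.45 to 0.23, adjusted p = 0.991).

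Smad7 had 8.60, 8.55 and 8.69 in the DA and 8.53, 8.92 and 8.81 in the aorta in F. In N it had 8.49, 8.60 and 8.71 in the DA and 8.77, 8.81 and 9.11 in the aorta. The vessels overlapped in F and not in N. The log2 fold change was -0.14 in F (standard error 0.14, adjusted p = 0.807, limma), -0.30 in N (standard error 0.14, adjusted p = 0.475) and -0.22 over both stages (95% interval -0.43 to -0.01, adjusted p = 0.254, 0.0618 with the replicate block).

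Id1 and Id3 encode helix-loop-helix proteins without a DNA-binding region, which hold back differentiation by binding other factors of that class, and both are direct targets of BMP Smads. Their promoters and that of Smad7 are shown because BMP signals induce these genes. The sequences are the 250 bases before the start site from RefSeq (rat build GRCr8), 5′ to 3′ on the gene's strand. Capitals mark GGCGCC, a GC-rich element of the kind BMP Smads bind, and TATAAA, the core promoter box, each searched on both strands.
Smad7, chr18:71263258-71263507, + strand: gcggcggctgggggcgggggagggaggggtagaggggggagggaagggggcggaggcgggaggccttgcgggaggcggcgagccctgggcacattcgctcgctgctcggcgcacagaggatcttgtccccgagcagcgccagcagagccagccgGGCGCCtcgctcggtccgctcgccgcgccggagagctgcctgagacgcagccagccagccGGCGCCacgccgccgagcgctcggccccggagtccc
Id1, chr3:161671314-161671563, + strand: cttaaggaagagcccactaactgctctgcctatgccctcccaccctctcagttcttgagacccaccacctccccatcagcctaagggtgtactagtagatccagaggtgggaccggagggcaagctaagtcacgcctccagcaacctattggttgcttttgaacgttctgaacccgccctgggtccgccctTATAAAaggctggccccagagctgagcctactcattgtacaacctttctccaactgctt
Id3, chr5:153656041-153656290, + strand: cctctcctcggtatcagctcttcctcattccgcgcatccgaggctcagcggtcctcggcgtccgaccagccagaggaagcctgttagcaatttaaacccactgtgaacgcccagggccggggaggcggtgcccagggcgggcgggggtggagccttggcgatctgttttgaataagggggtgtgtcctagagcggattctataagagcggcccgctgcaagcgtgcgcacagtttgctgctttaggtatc

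The Smad7 window held GGCGCC at 2 places, starting 96 and 36 bases before the start site, and the Id1 window held TATAAA once, 59 bases before it. Neither motif was in the Id3 window. Among all 33469 rat promoter windows of this length, 8.69% held GGCGCC and 12.9% held TATAAA. Of the 10 members, 7 had an entry in the table of promoters (all but Bmp2, Gdf6 and Smad6), and 2 of the 7, Smad7 and Bmper, held GGCGCC.

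Id1 varied far more between replicate numbers than between the vessels. It had 10.29, 9.74 and 9.48 in the DA and 10.47, 9.85 and 9.80 in the aorta in F, replicates 1 to 3. In N it had 10.22, 9.58 and 9.41 in the DA and 10.35, 9.98 and 9.62 in the aorta. The replicate 1 array was the highest of its group by a wide margin in all 4 groups, lying 0.37 to 0.48 above the mean of its group, and the replicate 3 array deviated from it by -0.36 to -0.24. Without the block, the log2 fold change over both stages was -0.22 (standard error 0.20, adjusted p = 0.668, limma).

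Within each replicate number Id1 was lower in the DA. DA minus aorta was between -0.39 and -0.11 in 6 of 6 pairs. The share of all probe sets with 6 of 6 pairs in 1 direction is not given. The blocked fit gave a log2 fold change over both stages of -0.22 with a standard error of 0.06 (adjusted p = 0.032, limma). That fit called 10.1% of all probe sets lower over both stages. In F and in N alone the blocked test was not passed (adjusted p = 0.193 and 0.155). The lys spike moved with the replicate numbers as well, 0.46 to 1.57 above the group mean on replicate 1 arrays and between -1.20 and -0.55 on replicate 3 arrays. The sources used here do not say what the replicate numbers mark, and the part of the RNA input or of the spike in the spread of Id1 was not tested. Nor was the part of the endothelial markers in its vessel difference, whose median log2 fold change over both stages was -0.19.

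**Figure D3:**
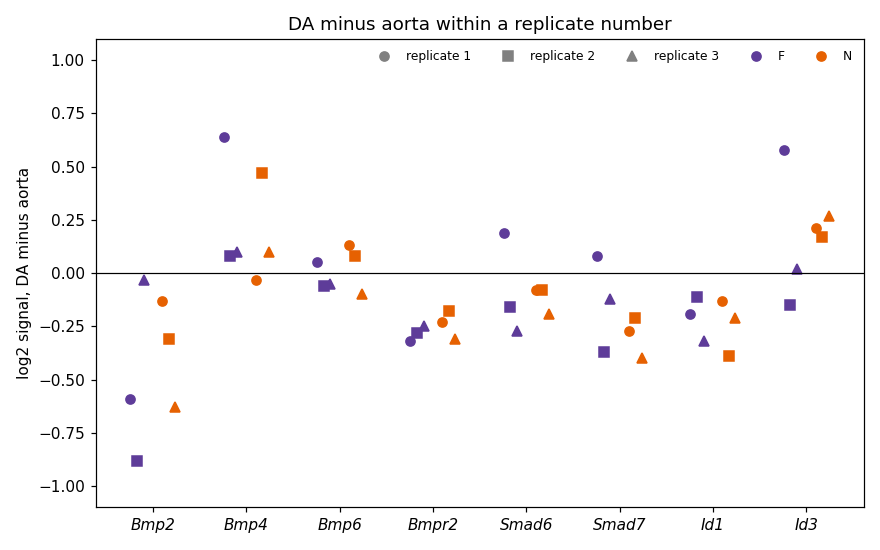
DA minus aorta in log2 signal (y axis) between arrays of the same replicate number, for 8 members, in F and N. Each point is 1 pair of arrays. All 6 pairs of Bmp2, Bmpr2 and Id1 lie below 0, those of Bmpr2 between -0.32 and -0.18, and the pairs of Bmp6 lie between -0.10 and 0.13. The share of all probe sets with all 6 pairs on 1 side of 0 is not given.

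Id3 had 10.68, 9.96 and 10.15 in the DA and 10.10, 10.10 and 10.13 in the aorta in F. In N it had 10.21, 10.23 and 10.23 in the DA, against 9.96 to 10.06 on the 3 aortic arrays. The F groups overlapped, with replicate 1 of the DA standing apart from the rest, and the N groups did not. The log2 fold change was 0.15 in F (standard error 0.16, adjusted p = 0.823, limma) and 0.22 in N (standard error 0.16, adjusted p = 0.818), and the block did not change either call (adjusted p = 0.564 and 0.444).

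The rest of the pathway was read from 52 further genes, of which 46 had a named probe set and 42 were tested. Over both stages 4 of the 42 were higher in the DA, 6 were lower and 32 did not pass the test, with a median log2 fold change of -0.04 against 0 over all probe sets. The share of all probe sets called in this comparison was 3.19% for higher and 4.93% for lower. With the replicate block, 4 were higher and 9 were lower, against shares of 7.71% and 10.1% of all probe sets. Between N and F, 0 of the 42 were called in either vessel by limma, and an unadjusted p under 0.05 was seen for 1 of them in the DA, where 2.01% of all probe sets had one, and for 2 in the aorta, where 1.38% had. With the block 0 were called as well. N and F arrays did not overlap in 3 of the 42 in the DA and in 3 in the aorta, against 5.03% and 4.39% of all probe sets. Tmem100, a listed target gene, was among them in both vessels. It averaged 5.28 ± 0.15 in F and 6.27 ± 0.44 in N in the DA (SD, n = 3 each). In the aorta it averaged 5.25 ± 0.08 in F and 5.90 ± 0.23 in N (SD, n = 3 each).

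Among 10 other receptors and co-receptors, Acvrl1 alone passed the test. Acvrl1, the endothelial type I receptor ALK1, had 9.88 to 10.11 on the 3 DA arrays and 10.77 to 10.96 on the 3 aortic arrays in F. In N it had 10.10, 9.96 and 9.84 in the DA and 10.95, 10.70 and 10.77 in the aorta. All DA arrays lay below all aortic arrays, and the log2 fold change was -0.87 in F (standard error 0.12, adjusted p = 0.00114, limma) and -0.84 in N (standard error 0.12, adjusted p = 0.00171). Eng, the co-receptor endoglin, averaged 11.98 ± 0.04 on DA arrays and 11.89 ± 0.08 on aortic arrays of the F group (SD, n = 3 each). Bmpr1a, a broadly expressed type I receptor, averaged 8.77 ± 0.06 on DA arrays and 8.53 ± 0.29 on aortic arrays (SD, n = 3 each). Of 11 endothelial markers, 3 were lower in the DA over both stages (4.93% of all probe sets) and 0 were higher (3.19%). Their median was -0.19, and their part in the Acvrl1 difference was not tested. Acvr2a, a type II receptor, was called lower in F and over both stages with the block alone. In F its log2 fold change was -0.59 (adjusted p = 0.431 without the block and 0.00142 with it), and over both stages it was -0.42 (0.316 without and 0.000757 with it).

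Of 14 other secreted modulators tested, 1 was higher in the DA over both stages, 2 were lower and 11 did not pass. Mgp, matrix Gla protein, which binds BMPs and restrains vascular calcification, had 9.75, 9.12 and 9.43 in the DA and 10.50, 10.34 and 10.31 in the aorta in F. Its log2 fold change was -0.95 in F (standard error 0.17, adjusted p = 0.00621, limma) and -0.79 in N (standard error 0.17, adjusted p = 0.0249). The call in N was lost without DA N replicate 2, aorta N replicate 1 or aorta N replicate 3 (0.0898 to 0.146). Grem1, gremlin, an antagonist of BMP ligands, was lower over both stages at -0.60 (adjusted p = 0.00911). Its signals were below the spike of the same array on 4 of 12 arrays. Sost, sclerostin, a secreted inhibitor known from bone, was higher at 0.78 (adjusted p = 0.0202), with 7.24 to 7.74 over the 6 DA arrays and 6.21 to 7.25 over the 6 aortic arrays, a call lost without DA F replicate 3 or DA N replicate 2 (0.0513 to 0.0581). Within a stage Sost was called with the block alone, in F at 0.83 (adjusted p = 0.134 without it and 0.00333 with it) and in N at 0.74 (0.239 without and 0.00829 with it). Fst, follistatin, and Chrd, chordin, both ligand antagonists, were lower over both stages with the block (adjusted p = 0.00463 and 0.0224) and had adjusted p-values of 0.058 and 0.116 without it. In F, Fst was also called lower with the block (adjusted p = 0.275 without it and 0.0395 with it).

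Of 5 other ligands tested, Bmp3 was higher and Bmp15 lower in the DA over both stages. Both were called in F (adjusted p = 0.00357 for Bmp3 and 0.0173 for Bmp15, limma) and not in N (0.256 and 0.43). The Bmp15 call in F was lost without aorta F replicate 2, aorta F replicate 3 or DA F replicate 2 (0.0524 to 0.0784). Bmp3, a family member that opposes other BMPs, differed by 0.65 on the log2 scale (standard error 0.10, adjusted p = 0.00152, limma) and signals of 5.45 to 5.66 on DA arrays and 4.47 to 5.25 on aortic arrays. Bmp15, a ligand known from the oocyte, differed by -0.61 on the log2 scale (standard error 0.12, adjusted p = 0.00751) and signals of 4.89 to 5.76 on DA arrays and 5.87 to 6.24 on aortic arrays. These 2 probe sets were dim, below the spike of the same array on 3 and 2 of 12 arrays. Bmp5 and Bmp10 were below the spike on average and were not tested.

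Among Smads, Smad9, a receptor-activated Smad of the BMP branch, was higher in the DA over both stages, where it differed by 0.47 on the log2 scale (standard error 0.12, adjusted p = 0.0263, limma). It was at 5.90 to 6.46 on DA arrays and 5.65 to 5.89 on aortic arrays, and the call was lost without any 1 of 7 arrays, DA F replicates 1 and 3, aorta F replicates 2 and 3, DA N replicate 3 and aorta N replicates 1 and 2 (0.057 to 0.0716). In F alone it was called with the block (adjusted p = 0.0315) and not without it (0.165). The other 5 genes of this list, Smad1, Smad4, Smad5, Smurf1 and Smurf2, did not pass.

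Of 7 other target genes tested, Atoh8 was higher and Id4 and Msx1 were lower in the DA over both stages. Atoh8, a helix-loop-helix factor induced by BMP signals in endothelium, differed by 0.46 on the log2 scale (standard error 0.10, adjusted p = 0.0141, limma), with 7.65 to 8.10 on DA arrays and 7.22 to 7.58 on aortic arrays. The block added its call in F (adjusted p = 0.0552 without it and 0.00443 with it). Id4, a relative of Id1 and Id3, stood at -0.51 (standard error 0.08, adjusted p = 0.00142), with 6.95 to 7.34 on DA arrays and 7.55 to 7.82 on aortic arrays. The block added its call in N (adjusted p = 0.164 without it and 0.045 with it). Msx1, a homeobox factor of BMP-responsive mesenchyme, was at -0.49 (standard error 0.10, adjusted p = 0.0107), and below the spike of the same array on 2 of 12 arrays. Id2, a further relative, averaged 10.20 ± 0.06 on DA arrays and 10.06 ± 0.09 on aortic arrays of the F group (SD, n = 3 each) and did not pass. Over both stages the log2 fold change of Id2 was 0.19 (adjusted p = 0.274, limma).

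**Figure D4:**
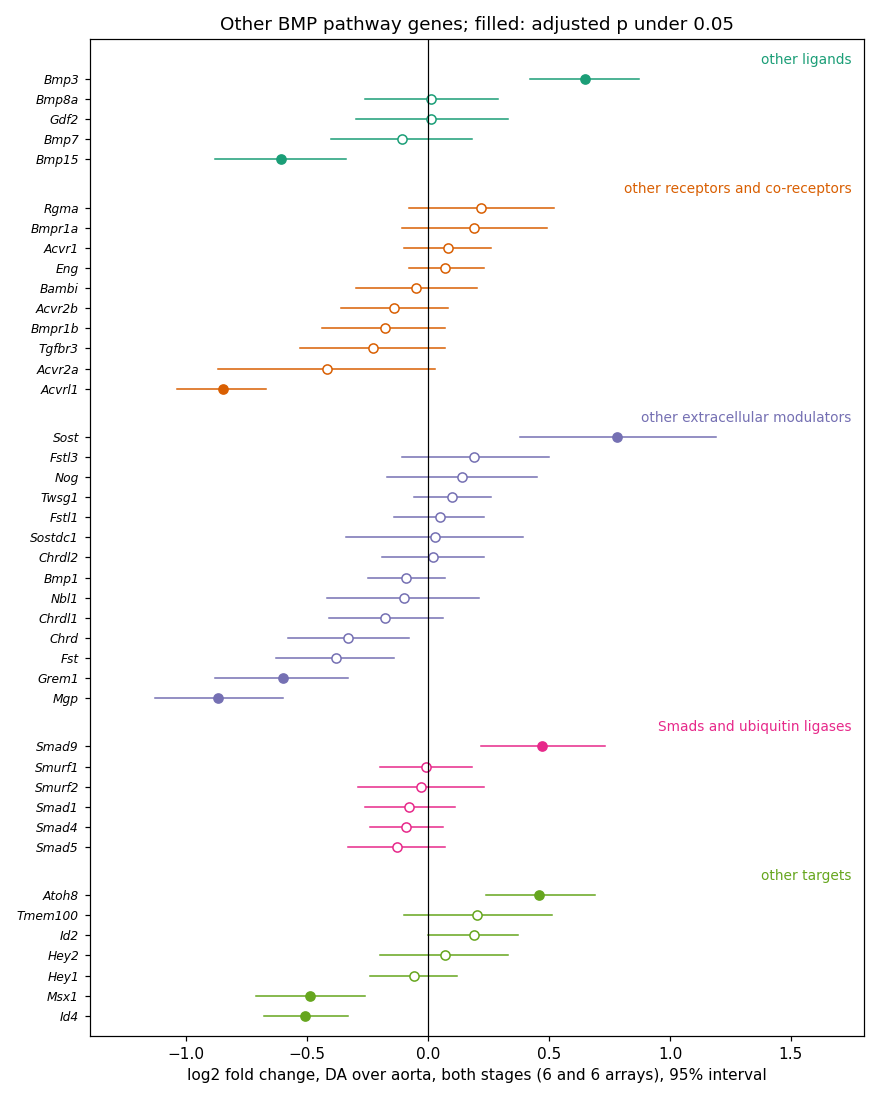
Log2 fold change of DA over aorta over both stages (x axis) for the 42 other BMP pathway genes tested, grouped by role, with 6 DA and 6 aortic arrays. Lines are 95% intervals and filled points passed limma's test. Acvrl1 and Mgp are the lowest, Sost and Bmp3 the highest.

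After birth, 0 of the 9 members passed limma's test in either vessel, where the share of all probe sets called was 0.00535% for the DA and 0% for the aorta (0.0535% and 0.0161% with the block, which called 0 members as well). An unadjusted p under 0.05 was found for 1 member in the DA, Gdf6, where 2.01% of all probe sets had one, and for 0 in the aorta, where 1.38% had. The log2 fold change of Gdf6 in the DA was -0.41 (standard error 0.17, 95% interval -0.79 to -0.04, adjusted p = 1, and 0.479 with the block), and that in the aorta was -0.11 (standard error 0.17, interval -0.48 to 0.27, adjusted p = 1). The pairs of DA arrays were uneven, with N minus F at -0.73 for replicate 1, 0.00 for replicate 2 and -0.51 for replicate 3. For Gdf6 the vessel contrast of N minus that of F was -0.31 (standard error 0.24, adjusted p = 1), and 0 members were called in that test, with 0 at an unadjusted p under 0.05 (0.931% of all probe sets). The 4 erythroid markers were also below 0 for N against F in the DA, with a median log2 fold change of -0.80, and 3 of them had an unadjusted p under 0.05 and groups that did not overlap. Hbb, a beta globin gene, averaged 7.18 ± 0.32 in N and 8.71 ± 0.94 in F in the DA (SD, n = 3 each), and the part of red cell RNA in the Gdf6 values was not tested.

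Bmp4 was the only member with a log2 fold change below -0.2 in both vessels, and it was not called in either. N against F gave -0.36 in the DA (95% interval -0.80 to 0.08, adjusted p = 1, limma) and -0.27 in the aorta (-0.71 to 0.17, adjusted p = 1). N minus F lay between -0.73 and -0.03 in 6 of 6 pairs of replicate numbers, and the 3 DA arrays of N lay below the 3 of F, which was so for 2.04% of all probe sets (5.03% in either direction). In the aorta only Id3 had N arrays, all lower, that did not overlap the F arrays, which was so for 1.46% of all probe sets (4.39% in either direction). For Bmp4 the blocked fit gave adjusted p = 0.554 for the DA and 1 for the aorta. Smad6 was below 0 in 6 of 6 pairs as well, between -0.29 and -0.01. For these counts of pairs too, the share over all probe sets is not given. For Bmp6, the interval of N against F was -0.16 to 0.29 in the DA, and for Bmpr2 -0.19 to 0.28.

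**Figure D5:**
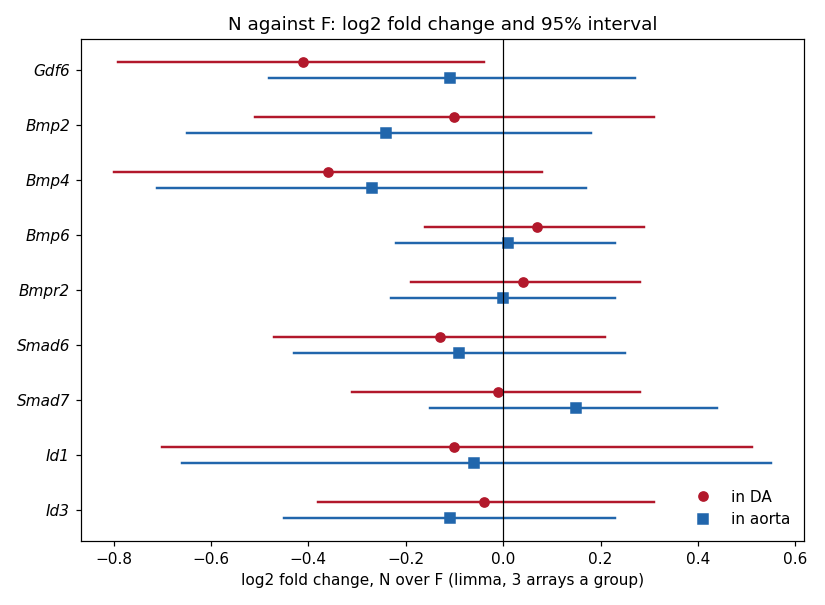
Log2 fold change of N over F (x axis) for the 9 measured members in the DA (circles) and the aorta (squares), from limma with 3 arrays per group. Lines are 95% intervals. The values lie between -0.41 and 0.15, and all intervals include 0 except that of Gdf6 in the DA (-0.79 to -0.04).

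Members were also compared by their pattern over the 12 arrays, as a description, since all probe sets share the same RNA pools and arrays. The probe sets most like Gdf6, of 11898 others with 1 gene symbol, were those of Cxadr (r = 0.985), an adhesion protein of tight junctions, Slc39a8 (r = 0.981), a zinc transporter, and Mdfi (r = 0.981), an inhibitor of myogenic factors. Their log2 fold changes between the vessels over both stages were 1.81, 1.11 and 1.15, which their choice by likeness to Gdf6 on the same arrays fixed in direction, so that no test is given. Those most like Bmp4 were Cat, the antioxidant enzyme catalase (r = 0.933), Alg3, a mannosyltransferase (r = 0.922), and Ncam1, a neural adhesion molecule (r = 0.918), with vessel log2 fold changes of 0.20, 0.15 and 0.18. Those most like Id1 were Eif5b, a translation initiation factor (r = 0.978), Rfesd (r = 0.977) and Glrx5, a glutaredoxin of iron-sulfur cluster assembly (r = 0.973), with vessel log2 fold changes of -0.19, -0.23 and -0.30. Among the members themselves, Bmpr2 ran with Bmp2 and with Smad7 (r = 0.78 each), and against Gdf6 (r = -0.88). These r were taken over both vessels. The vessels did not overlap in Gdf6 or in Bmpr2, so their r partly repeats the vessel contrasts above. Id1 deviated with the replicate number, and arrays of the same number deviated together over the probe sets tested. The r of Id1 with other probe sets therefore partly repeats that shared deviation.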

How the data were processed

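Each of the 12 Rat Gene 1.0 ST arrays held RNA of sorted ECs. The authors deposited 1 table of log2 signal per probe set, and the sources used here do not give how they summarised or normalized it. The values were used as deposited. In the platform's table, with symbols updated through RefSeq, 15307 of 26468 probe sets carried 1 gene symbol, 323 several and 10838 none. Probe sets whose mean was at or above that of the lys spike were tested (18690, leaving out 7778). The study's methods filtered on the same spike, by a rule not spelled out there, and left out more probe sets than this. The fit used limma 3.58.1 (R 4.3.3), with 6 contrasts of the 4 group means, and the code was tested on simulated data. The study's own t-test was kept as an alternative, beside no filter, quantile normalization, an intensity trend, array weights, a fit of the compared arrays alone and each array left out.

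The 10 members and the lists were chosen with earlier results of these data known. Beside the members, the text names the listed pathway genes past the test in any contrast, and the 3 probe sets most correlated with Gdf6, Bmp4 and Id1. Other listed genes were named after their values were seen.

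As a check of the pairing, deviations from group means were correlated over probe sets, which are not independent. Between groups, r was 0.539 to 0.82 among replicate 1 arrays, 0.102 to 0.301 among replicate 2 and 0.393 to 0.735 among replicate 3, against -0.738 to 0.368 for different numbers. The labels give these numbers, so a second fit held them as a block.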

Additional observations from a re-analysis of the deposited data

How the results depend on the processing

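Gdf6 was higher in the DA and past the threshold at either stage under every alternative run, except in N after Benjamini-Hochberg adjustment of the methods' t-test (log2 fold change 1.96, adjusted p = 0.102). In the fit reported, 1 member was called at each stage and 1 over both. In F it was 2 with the replicate block (Bmpr2 added), 2 with array weights (Bmp2) and 2 by the methods' t-test without adjustment (Bmpr2), at its threshold of 0.05. In N it was 2 with array weights (Bmp4), 3 by the unadjusted t-test (Bmpr2 and Id3) and 0 by that test after Benjamini-Hochberg. Over both stages it was 4 with the replicate block (Bmp2, Bmpr2 and Id1), 4 with array weights (Bmp2, Bmpr2 and Smad7), 4 by the unadjusted t-test (Bmp2, Bmpr2 and Smad7), and 2 each with quantile normalization (Bmp2), with an intensity trend (Bmpr2) and by the t-test after Benjamini-Hochberg (Bmpr2). Without 1 array it ranged from 1 to 2. Between N and F it was 0 throughout, except for 1 in the aorta by the unadjusted t-test (Id3). That t-test called 11.9% of all probe sets in F, 9.91% in N, 20.7% over both stages and 2.04% for N against F in the aorta. For array weights, quantile normalization, the intensity trend, the adjusted t-test and single arrays left out, the share of all probe sets called is not given here. Members added under these settings therefore cannot be set against such a share.

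With the block, 1951 probe sets were called in F against 705 without it, 1358 against 586 in N and 3327 against 1518 over both stages, and the pairing changed no other call of a member. Each measured member had 1 probe set, so the choice of another could not be tried, and the t-test was not run for the difference of the vessel contrast. The cause of these changes was not tested.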
